A study of Homo sapiens with 22 samples.

Results

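The effect of a BAZ1B knockout on each gene was compared between proliferating and maturing erythroid cells. The measure was a difference of differences, KO minus WT at D6 less KO minus WT at D0, so a positive value means that expression in KO cells stood higher against WT at D6 than it had at D0. All 12 RNA-Seq libraries of the BAZ1B experiment entered it, out of 22 libraries in the series, with 3 libraries each of BAZ1B WT at D0, BAZ1B KO at D0, BAZ1B WT at D6 and BAZ1B KO at D6. HUDEP-2, an immortalized line of human erythroid progenitors, was the only cell line. D0 cells were kept in expansion medium with stem cell factor, erythropoietin, dexamethasone and doxycycline. D6 cells had been in differentiation medium without dexamethasone, with erythropoietin, stem cell factor, insulin, transferrin, heparin, plasma and doxycycline. Every comparison between days therefore also spans a change of medium, which WT and KO shared. Per the methods of the study, KO lines were grown from single cells after CRISPR/Cas9 deletion of the first exon of BAZ1B with a pair of guides, so a line is 1 clone. The labels number the replicates without saying what a number marks. The headers of the count table write KO1 to KO3 at both days, which are also the names of the BAZ1B KO subclones in the study. Equal KO numbers are therefore read as the same subclone at D0 and D6. The study writes of WT subclones for its H2A.X RNA-Seq and its blots, but does not say what the WT numbers of the BAZ1B libraries mark. The spread among these WT libraries may therefore be technical alone. WT and KO libraries share an estimate of the spread, so this limit holds for every p value below.

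BAZ1B, also called WSTF, is a subunit of ISWI chromatin remodeling complexes and a kinase of histone H2A.X. As erythroid progenitors mature, they load the cell with hemoglobin, assemble the red cell membrane around band 3 and its spectrin skeleton, switch off progenitor and signaling genes, shrink, and condense the nucleus. Genes that differ in KO at 1 stage and not at the other are the subject of the comparison. In bulk RNA, fewer cells of a kind and less RNA per cell cannot be told apart.

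Total counts ran from 33199408 to 41273244 per library, and 13879 of 59087 gene names passed the filter on low counts. Values below are normalized counts, the deposited counts divided by the relative TMM library size, unless a log2 value is named. BAZ1B itself (GRCh38 chromosome 7, 73440406 to 73522293, minus strand) was at 9913, 9823 and 9703 in WT and 6556, 8349 and 7349 in KO at D0. At D6 it was at 9135, 9429 and 9104 in WT and 7037, 7377 and 6817 in KO. KO was lower at both days, and the difference between the days was 0.02 ± 0.09 on the log2 scale (SE, adjusted p = 0.945). Reads on exons behind the deleted one still count toward the gene, so this RNA does not measure the deletion itself. Erythroid markers were present in all 4 groups, some of them at other levels in KO. GATA1 was at 5442 ± 196 (SD, n = 3) in WT and 5700 ± 370 (SD, n = 3) in KO at D0, and at 12320 ± 329 and 12402 ± 139 (SD, n = 3 each) at D6. HBA1 was at 7876 ± 745 in WT and 5692 ± 255 in KO at D0 (SD, n = 3 each), and SLC4A1 and HBB are given in full further on. The 3 WT libraries of a day were closer to each other than the KO libraries, with biological coefficients of variation of 0.0288 and 0.0474 in WT and 0.144 and 0.111 in KO at D0 and D6.

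The KO effect differed between D6 and D0 for 343 of 13879 genes, 2.47% of those tested, at a Benjamini-Hochberg adjusted p below 0.05 in edgeR's quasi-likelihood test. It was more positive at D6 for 219 genes (1.58%) and more negative for 124 (0.893%), which puts 63.8% of calls on the positive side. With upper-quartile scaling in place of TMM that share was 51.2%, with 171 genes on the positive and 163 on the negative side. For comparison, KO and WT differed at D0 alone for 539 genes (3.88%, 173 higher and 366 lower in KO) and at D6 alone for 1782 genes (12.8%, 954 higher and 828 lower). Upper-quartile scaling turned the majority at D6, with 812 higher and 960 lower, or 45.8% higher against 53.5%. The D0 and D6 comparisons use separate libraries but the same KO subclones, as read from the headers, and the same fit. They are therefore not independent. Between them 295 genes were called at both days, 54.7% of the D0 genes and 16.6% of the D6 genes, and 289 of the 295 moved in 1 direction at both. The median difference over all genes was 0.0051 on the log2 scale. With a term for each genotype and number, which pairs D0 and D6 libraries, the count was 718. It had 426 genes on the positive and 292 on the negative side, and 334 of the 343 were among them. This fit, called paired by line below, also pairs WT libraries by number, although what the WT numbers mark is not known. The count of 343 depended on single libraries. It was 123, 119 and 143 without WT D0 replicates 1, 2 and 3, 188, 154 and 161 without WT D6 replicates 1, 2 and 3, 153 without KO D0 replicate 3, 211 without KO D6 replicate 3 and 765 without KO D0 replicate 1.

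The 343 genes fell into a few patterns. Most had a KO effect at D6 that had not been called at D0, 163 that were higher in KO at D6 and 104 that were lower. Another 32 were lower in KO at D0 and no longer called at D6, and 13 were higher in KO at D0 and no longer called at D6. The effect was called at both days in 1 direction, with a different size, for 13 of the positive and 4 of the negative genes. It was called at both days in opposite directions for 6 genes, and at neither day by itself for the remaining 8. Protein-coding genes held 334 of the 343 calls, 2.95% of 11318 tested, near the 2.47% of all genes. Of 593 tested long non-coding RNAs 5 were called (0.843%). With the tested genes split by mean level into 4 bins of equal size, 0.663% were called in the lowest bin and 4.15% in the highest.

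**Figure D1:**
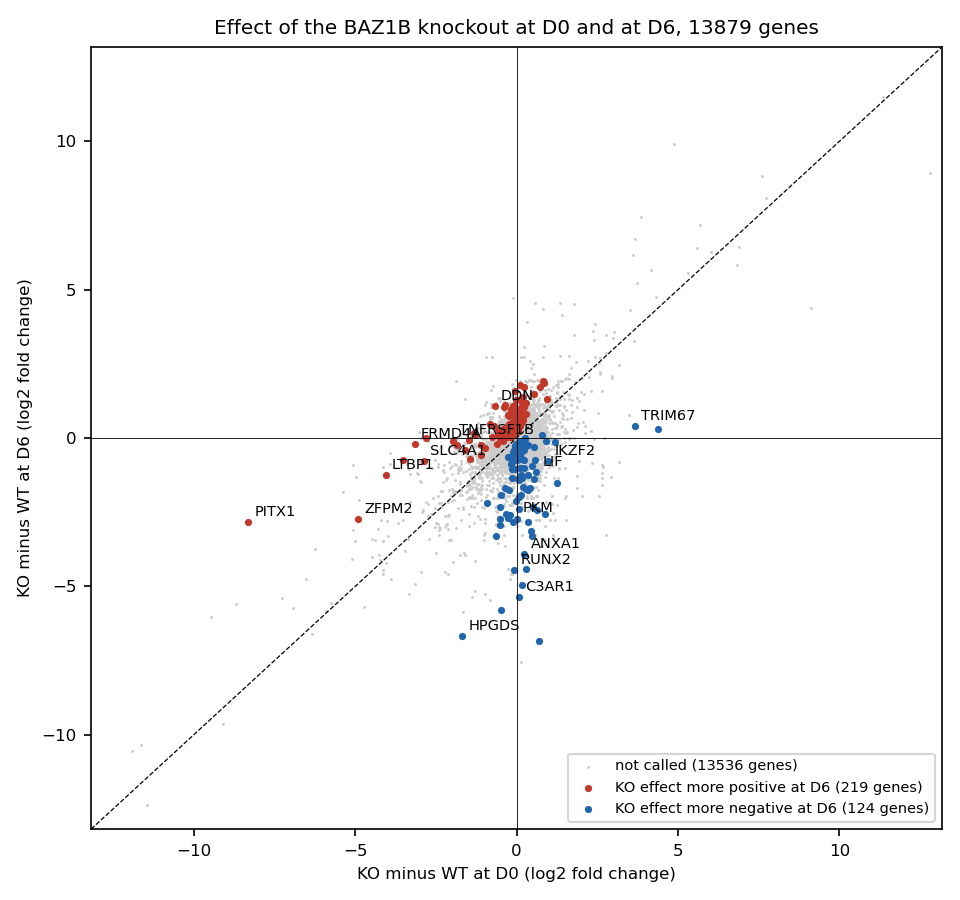
Log2 fold change of KO against WT at D0 (horizontal axis) and at D6 (vertical axis) for each of the 13879 genes, with the dashed line where both are equal. Red points are the 219 genes with a more positive and blue points the 124 genes with a more negative KO effect at D6. Most red points lie left of zero at D0 or above it at D6, and most blue points lie below zero at D6 near zero at D0. Values of genes without reads in a group, such as PITX1 at D0 and C3AR1 at D6, depend on the prior count.

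Several genes with large positive differences started far lower in KO cells at D0 and closed part or all of the gap by D6. The gap here is the log2 ratio of KO to WT, not the difference in normalized counts. SLC4A1 encodes band 3, the anion exchanger that anchors the red cell skeleton (GRCh38 chromosome 17, 44248390 to 44268141, minus strand). Its D0 values were 1163, 1277 and 1178 in WT and 239, 77.2 and 177 in KO. The D6 values were 129800, 124000 and 156300 in WT and 67010, 79120 and 94410 in KO. KO libraries were below every WT library at both days. The KO effect was -2.88 ± 0.25 at D0 and -0.77 ± 0.19 at D6 on the log2 scale (SE), a difference of 2.11 ± 0.32 (adjusted p = 0.0053). SLC4A1 rose from D0 to D6 by 6.83 on the log2 scale in WT and by 8.94 in KO. It was the only one of 20 tested genes of the membrane skeleton and band 3 complex with a called difference.

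LTBP1, which binds latent TGF-beta in the extracellular matrix, behaved in the same manner. It was at 137, 134 and 133 in WT and 15.8, 3.76 and 4.28 in KO at D0, and at 4736, 4848 and 5392 in WT and 2153, 1881 and 2311 in KO at D6. Its KO effect went from -4.06 ± 0.28 to -1.24 ± 0.10 (SE), a difference of 2.82 ± 0.32 (adjusted p = 0.00118). PITX1, a homeobox transcription factor of hindlimb and pituitary, had no read in any of the 3 KO libraries at D0, where WT was at 43.0, 37.9 and 38.8. Against a floor of 3 reads per library KO was at least 13.3-fold lower at D0. At D6 PITX1 was at 1354, 1249 and 1517 in WT and had appeared in KO at 148, 221 and 206, a KO effect of -2.85 ± 0.14 (SE) on the log2 scale. The fitted difference of PITX1 (adjusted p = 0.014) depends on the prior count and is no bound, and with limma weights per group its adjusted p was 0.0641. ATP1B2, a beta subunit of the sodium-potassium pump, was at 252, 245 and 260 in WT and 117, 74.3 and 56.7 in KO at D0. At D6 ATP1B2 was at 9551, 8855 and 9980 in WT and 6476, 7237 and 7672 in KO, so that KO lay below WT at both days with a difference of 1.19 ± 0.20 (SE, adjusted p = 0.00983).

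In some genes the KO effect was called at D0 and not at D6. TNFRSF1B, a receptor for tumor necrosis factor, was at 189, 201 and 195 in WT and 69.0, 38.6 and 40.7 in KO at D0. Maturing cells held it at 1153, 1221 and 1102 in WT and 999, 1180 and 1092 in KO, where the groups overlapped. Its KO effect was -1.98 ± 0.16 at D0 and -0.09 ± 0.12 at D6, a difference of 1.89 ± 0.20 (SE, adjusted p = 0.000734). SCPEP1, a serine carboxypeptidase, was at 224, 241 and 274 in WT and 125, 80.9 and 59.9 in KO at D0. At D6 SCPEP1 was at 3263, 3148 and 3483 in WT and 2689, 3543 and 3251 in KO, again with overlap, and its difference was 1.40 ± 0.24 (SE, adjusted p = 0.00983). FRMD4A, a FERM-domain scaffold of epithelial polarity, went from 37.5, 42.2 and 30.0 in WT and 2.96, 5.65 and 3.21 in KO to 645, 703 and 684 in WT and 396, 767 and 599 in KO. Its difference was 2.95 ± 0.47 (SE, adjusted p = 0.00658), or adjusted p = 0.157 with limma weights per group. ZFPM2, a cofactor of GATA proteins, did not rise in WT and stayed far lower in KO at both days. It was at 269, 187 and 187 in WT and 8.87, 6.59 and 5.35 in KO at D0, and at 247, 260 and 245 in WT and 43.6, 29.0 and 39.8 in KO at D6. Its KO effect narrowed from -4.92 ± 0.25 to -2.73 ± 0.20 (SE), with an adjusted p of 0.00538 that became 0.115 with limma weights per group.

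**Figure D2:**
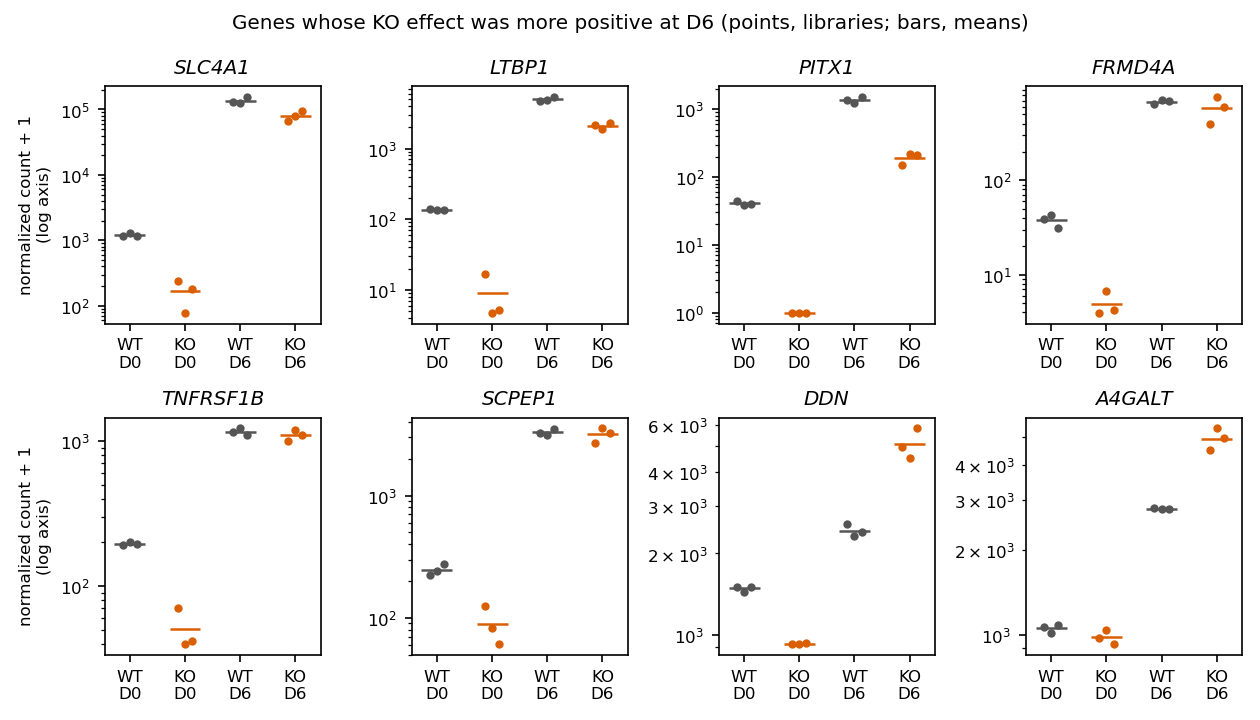
Normalized counts plus 1 on a log axis for 8 genes, with WT in gray and KO in orange at D0 and D6, where points are libraries and bars are means of 3. SLC4A1, LTBP1, PITX1, FRMD4A, TNFRSF1B and SCPEP1 lie below WT in all KO libraries at D0 and close some or all of the gap on the log axis at D6. DDN goes from below to above WT, and A4GALT overlaps with WT at D0 and lies above it at D6.

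For 5 of the 6 genes with opposite effects, KO was lower at D0 and higher at D6. DDN, an actin-associated protein first described in dendrites, was at 1505, 1442 and 1502 in WT and 925, 920 and 930 in KO at D0. At D6 DDN was at 2569, 2316 and 2399 in WT and 4972, 4517 and 5827 in KO, so neither day had overlap. Its KO effect was -0.68 ± 0.08 at D0 and 1.07 ± 0.07 at D6, a difference of 1.75 ± 0.11 (SE, adjusted p = 1.29e-05). DDN-AS1 overlaps it on the other strand, and if the counting ignored strand, reads of both cannot be told apart. CRB2, a polarity protein of the crumbs family, was at 677, 707 and 719 in WT and 567, 584 and 624 in KO at D0, and at 518, 498 and 513 in WT and 844, 889 and 845 in KO at D6. TFIP11, a factor of spliceosome disassembly, was at 5740, 6215 and 6122 in WT and 4611, 4637 and 4591 in KO at D0, and at 4407, 4504 and 4209 in WT and 5264, 5165 and 5213 in KO at D6. The differences were 0.9995 ± 0.09 for CRB2 and 0.64 ± 0.05 for TFIP11 (SE, adjusted p = 0.000151 for each), and the calls of DDN, CRB2 and TFIP11 held in each of the 19 refits at this threshold. REEP6, which shapes the endoplasmic reticulum, had a difference of 0.71 ± 0.13 and ZNF395, a zinc finger factor, one of 0.66 ± 0.13 (SE). The call of REEP6 was lost without WT D0 replicate 1 (adjusted p = 0.05). That of ZNF395 was lost without WT D0 replicates 2 or 3, KO D0 replicate 3, or WT D6 replicates 2 or 3 (adjusted p up to 0.0645).

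The gene list with the most calls in 1 direction held the enzymes of cholesterol and fatty acid synthesis. These genes are switched on as a group by the SREBP transcription factors when membrane cholesterol is low. Of its 36 genes, 10 had a more positive KO effect at D6 and none a more negative one, 27.8% against 2.47% of all genes. All but 1 of the 36 had a positive difference, with a median of 0.24 on the log2 scale against 0.0051 over all genes. At D0 the median KO effect of the list was 0.029 and no member was called in either direction. At D6 it was 0.251, and 19 members were called, all higher in KO. Of all 13879 genes 12.8% were called at D6, and 954 were higher. The list was chosen with earlier results of these data known, so its count describes it and is no independent test. The count of 10 moved with single libraries. Without 1 library it ranged from 2 (without WT D0 replicate 2, WT D6 replicate 2 or KO D6 replicate 3) to 16 (without KO D6 replicate 1). It was 3 without WT D0 replicate 1 or WT D6 replicate 3, 4 without WT D0 replicate 3 or WT D6 replicate 1, and 5 without KO D0 replicate 3. The median stayed between 0.185 and 0.288 in all of these fits.

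HMGCS1, the synthase that makes HMG-CoA, was at 20710, 21630 and 21450 in WT and 20800, 17000 and 16960 in KO at D0. At D6 HMGCS1 was at 17310, 16240 and 16220 in WT and 22530, 23210 and 20110 in KO, with a difference of 0.62 ± 0.11 (SE, adjusted p = 0.00987). DHCR7, which carries out the final reduction to cholesterol, was at 5039, 5036 and 4840 in WT and 5010, 4631 and 4918 in KO at D0, and at 4779, 4198 and 4480 in WT and 5419, 6182 and 5918 in KO at D6. From D0 to D6 DHCR7 rose by 0.27 in KO on the log2 scale, against a change of -0.15 in WT. Its difference was 0.42 ± 0.08 (SE, adjusted p = 0.0185). The call of DHCR7 was lost without WT D0 replicates 1 or 2, WT D6 replicates 2 or 3 or KO D6 replicate 3, at adjusted p up to 0.0656.

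Another 5 called members are named here after their values were seen. FASN, the fatty acid synthase, had a difference of 0.92 ± 0.19 (SE, adjusted p = 0.0241). It was at 24310, 23040 and 22360 in WT and 22440, 22440 and 24020 in KO at D0, and at 25770, 23330 and 27960 in WT and 35110, 56870 and 52060 in KO at D6. LSS, which closes the sterol ring system, EBP, a sterol isomerase, FADS2, a fatty acid desaturase, and ELOVL6, a fatty acid elongase, had differences of 0.46, 0.41, 0.42 and 0.29 on the log2 scale. In each of the called genes named here all 3 KO libraries lay above all 3 WT libraries at D6. The calls of these 5 were each lost in 7 to 9 of the fits without 1 library, or in 10 for FADS2. Also chosen after their values were seen, LPIN1, SREBF2 and FDFT1 of the same list showed no called KO effect at either day.

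**Figure D3:**
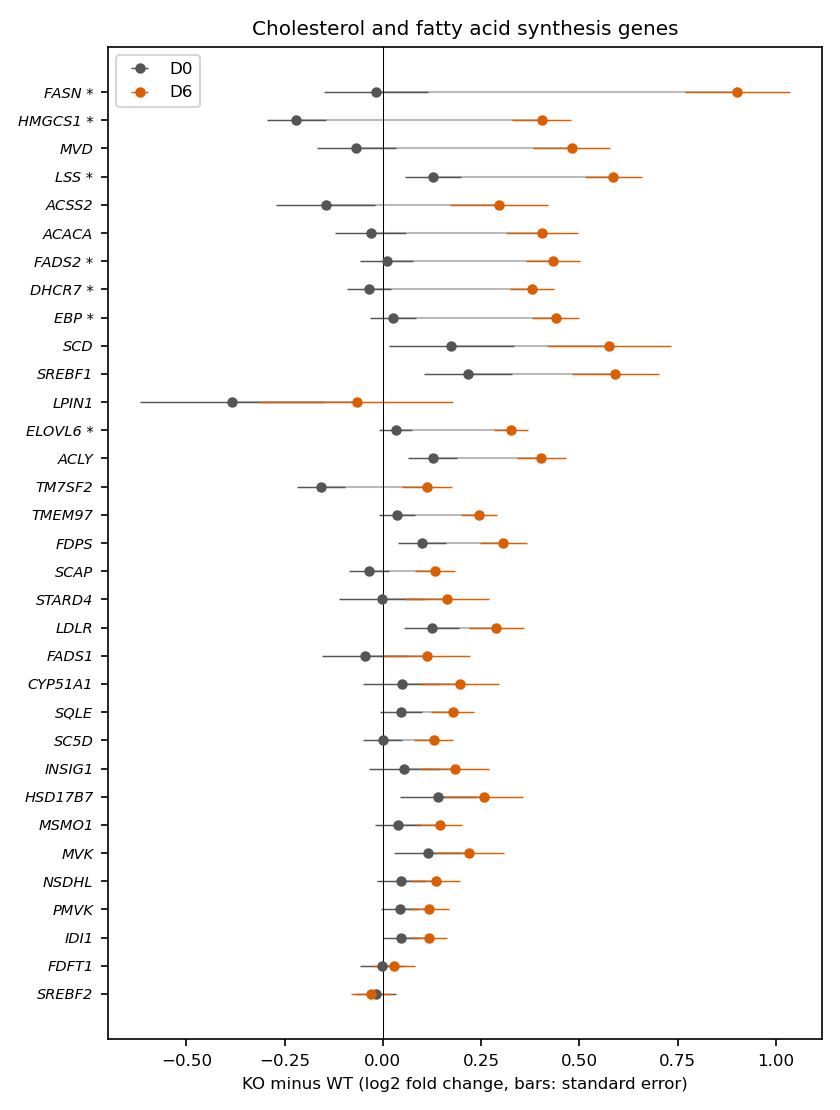
KO minus WT on the log2 scale (horizontal axis, bars are standard errors) at D0 in gray and at D6 in orange for 33 genes of cholesterol and fatty acid synthesis, ordered by the difference between the days. A star marks the 7 called genes among them. The D0 values lie between -0.38 and 0.22 and the D6 values between -0.07 and 0.90.

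Of the 10 called members 6 had a RefSeq promoter, and 4 of these 6 held the motif CCAAT. Those 4 promoters are printed because they hold it. FADS2 and ELOVL6, called as well, had none in theirs. Each is the stretch of 250 bases before the RefSeq start site in GRCh38.p14, read 5′ to 3′ on the strand of the gene, with CCAAT in either orientation (CCAAT or ATTGG) in capitals. CCAAT is the site read by the factor NF-Y, which works next to SREBP at several such promoters.
HMGCS1 (chr5:43313413-43313662, minus strand): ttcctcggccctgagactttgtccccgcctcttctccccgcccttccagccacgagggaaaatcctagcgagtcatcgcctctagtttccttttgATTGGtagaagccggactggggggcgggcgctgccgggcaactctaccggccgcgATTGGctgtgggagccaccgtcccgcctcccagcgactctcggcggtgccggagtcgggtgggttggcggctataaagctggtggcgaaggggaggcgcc
DHCR7 (chr11:71448394-71448643, minus strand): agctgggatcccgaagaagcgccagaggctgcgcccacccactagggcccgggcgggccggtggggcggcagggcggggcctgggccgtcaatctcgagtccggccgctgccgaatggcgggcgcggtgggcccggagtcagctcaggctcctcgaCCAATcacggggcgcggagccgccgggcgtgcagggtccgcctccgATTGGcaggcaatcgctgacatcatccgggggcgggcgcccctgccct
EBP (chrX:48521558-48521807, plus strand): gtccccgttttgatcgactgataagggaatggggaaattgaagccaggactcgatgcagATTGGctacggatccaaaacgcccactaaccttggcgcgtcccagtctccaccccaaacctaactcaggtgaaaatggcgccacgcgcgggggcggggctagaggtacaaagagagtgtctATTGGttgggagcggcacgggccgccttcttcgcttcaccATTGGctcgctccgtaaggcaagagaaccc
LSS (chr21:46228775-46229024, minus strand): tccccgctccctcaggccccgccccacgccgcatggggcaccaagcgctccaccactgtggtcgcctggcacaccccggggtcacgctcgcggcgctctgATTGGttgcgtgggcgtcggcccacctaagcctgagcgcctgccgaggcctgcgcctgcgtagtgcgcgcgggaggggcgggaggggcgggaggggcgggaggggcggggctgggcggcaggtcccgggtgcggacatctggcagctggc
The motif occurs 2 times in HMGCS1 and DHCR7, 3 times in EBP and 1 time in LSS. RefSeq promoters were matched for 29 of the 36 list members, of which 19 (65.5%) held CCAAT, and for 9577 of the 13879 tested genes, of which 35.3% held it. The motif was not particular to this list. It stood in 18 of 32 promoters (56.2%) of the ATF4 stress response list described below. Among all genes called more positive at D6 it stood in 50 of 167 (29.9%). The sterol-element-like motif TCACNCNAC on either strand occurred in 4 of the 29 (13.8%) and in 1.89% of the tested promoters, and is absent from the 4 stretches printed. FADS2 was the 1 called member that held it. A match is a description of the letters and not evidence of binding.

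Other genes had no called KO effect at D0 and were higher in KO at D6. The 163 genes of this pattern had a median KO effect of -0.032 at D0 and 0.399 at D6 on the log2 scale. A4GALT, the galactosyltransferase that makes the P1 and Pk blood group antigens, was at 1065, 1012 and 1086 in WT and 972, 1039 and 926 in KO at D0. At D6 it was at 2818, 2778 and 2800 in WT and 4514, 5386 and 4962 in KO, a difference of 0.93 ± 0.09 (SE, adjusted p = 0.000384). A4GALT overlaps CYB5R3 in the annotation, so some reads can belong to the other gene. GLRX, a glutaredoxin that reduces protein disulfides, was at 662, 711 and 765 in WT and 730, 774 and 763 in KO at D0, and at 1171, 1186 and 1046 in WT and 2233, 2185 and 2300 in KO at D6. GLRX thus overlapped between the genotypes at D0 and separated at D6, with a difference of 0.90 ± 0.09 (SE, adjusted p = 0.000469). EZR, which links actin to the membrane, fell in WT and rose in KO. It was at 10600, 10350 and 10170 in WT and 11190, 10120 and 10360 in KO at D0, and at 8808, 8349 and 8749 in WT and 13070, 13830 and 13820 in KO at D6. CORO1B, a regulator of actin branching, fell in both genotypes, from 1894, 1915 and 1879 in WT to 431, 359 and 398, and from 1877, 2064 and 2254 in KO to 751, 867 and 742. The differences were 0.63 ± 0.06 for EZR and 0.87 ± 0.12 for CORO1B (SE, adjusted p = 0.000469 and 0.0028).

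Transporters and metabolic enzymes were among the genes higher in KO at D6, and also among those lower. Of 197 tested solute carriers 5 were called more positive and 4 more negative, 4.57% against 2.47% of all genes. Of 32 tested genes of glycolysis and the pentose phosphate pathway 2 were called more positive and 3 more negative (15.6%). SLC39A10, a zinc importer, differed by 0.40 ± 0.05 and SLC41A1, a magnesium transporter, by 0.47 ± 0.07 (SE, adjusted p = 0.0028 and 0.00573). PKLR, the pyruvate kinase of red cells and liver, was at 20710, 19940 and 19820 in WT and 21910, 18660 and 19830 in KO at D0, and at 28650, 26850 and 28540 in WT and 38160, 39050 and 38430 in KO at D6. KO libraries lay above all WT libraries at D6, and the difference was 0.46 ± 0.07 (SE, adjusted p = 0.00658). The transcription factors MYB and RUNX1, both of early progenitors, fell in both genotypes and less in KO. They were the 2 positive calls among 24 tested erythroid and hematopoietic transcription factors, which also had 1 negative call. That made 12.5% called against 2.47% of all genes. Most of this list went the other way, with 18 negative and 6 positive differences and a median of -0.045. MYB was at 6038, 5760 and 5053 in WT and 8785, 7898 and 8011 in KO at D6, with a difference of 0.38 ± 0.09, and RUNX1 at 1458, 1543 and 1235 in WT and 2061, 2118 and 1960 in KO, with one of 0.53 ± 0.12 (SE). Their adjusted p values were 0.0436 and 0.0333. The call of MYB was lost with upper-quartile scaling and without any of 9 libraries, WT D6 replicate 1, KO D0 replicate 1 and KO D6 replicate 2 being the exceptions. That of RUNX1 was lost without any of 8 libraries, KO D0 replicates 1 and 2, WT D6 replicate 2 and KO D6 replicate 1 being the exceptions, and adjusted p values reached 0.119 and 0.0946. MCF2, a guanine nucleotide exchange factor, was already higher in KO at D0 and more so at D6. It was at 1135, 1203 and 1215 in WT and 1859, 2122 and 2237 in KO at D0, and at 170, 141 and 138 in WT and 584, 629 and 490 in KO at D6. The KO effect of MCF2 grew by 1.12 ± 0.15 on the log2 scale (SE, adjusted p = 0.0028).

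On the negative side, several leading genes overlapped between WT and KO at D0, fell in WT on maturation and fell much further in KO. PKM, the pyruvate kinase of proliferating cells, was the most abundant of them (GRCh38 chromosome 15, 72199029 to 72231819, minus strand). It was at 30300, 28080 and 27480 in WT and 22700, 31160 and 32050 in KO at D0. Its D6 values were 931, 720 and 706 in WT and 172, 92.8 and 87.9 in KO, with no overlap. PKM changed by -5.19 on the log2 scale in WT and by -7.91 in KO, a difference of -2.72 ± 0.27 (SE, adjusted p = 0.000469). PKLR, the other pyruvate kinase gene, went the other way as given above. ANXA1, an annexin of myeloid cells that is induced by glucocorticoids, was at 1293, 991 and 977 in WT and 818, 1139 and 1906 in KO at D0, and at 575, 403 and 415 in WT and 65.4, 16.3 and 8.37 in KO at D6. Its KO effect was 0.24 ± 0.32 at D0 and -3.90 ± 0.48 at D6, a difference of -4.15 ± 0.59 (SE, adjusted p = 0.00392). RUNX2, the relative of RUNX1 that directs bone formation, was at 714, 638 and 679 in WT and 642, 544 and 743 in KO at D0. At D6 RUNX2 was at 37.9, 22.6 and 17.1 in WT and at 1.98, 1.16 and 0 in KO, from 2, 1 and 0 reads. WT held 24.1 times the reads of KO at D6, with an exact 95% counting interval of 7.93 to 120, and the difference between the days had an adjusted p of 0.0033. RUNX2 overlaps SUPT3H in the annotation.

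GCSAML, a germinal-center signaling adaptor, followed the same course. It was at 2042, 1959 and 2061 in WT and 2047, 1559 and 1990 in KO at D0, and at 276, 261 and 239 in WT and 63.4, 20.9 and 22.0 in KO at D6, a difference of -2.71 ± 0.31 (SE, adjusted p = 0.00121). CAPG, an actin-capping protein of macrophages, was at 1356, 1413 and 1445 in WT and 1460, 1908 and 2010 in KO at D0, and at 89.3, 82.6 and 96.7 in WT and 51.5, 36.0 and 26.2 in KO at D6. Its difference was -1.58 ± 0.25 (SE, adjusted p = 0.00658). CEBPD, a glucocorticoid-inducible transcription factor of myeloid cells, was at 30.1, 40.7 and 49.4 in WT and 4.95, 8.12 and 5.23 in KO at D6 after overlapping at D0, a difference of -2.45 ± 0.37 (SE, adjusted p = 0.00487). The 20 tested glucocorticoid response genes had 1 negative call, CEBPD, and 1 positive one, 10% against 2.47% of all genes. Of their differences 8 were positive and 12 negative, with a median of -0.109. ANXA1, GCSAML, PKM and CAPG shared 1 feature at D6, in that KO replicate 1 held the highest of the 3 KO values, and without that library all 4 calls held. C3AR1, a complement receptor of myeloid cells, had no read in KO at D6 and 3.35, 7.92 and 4.03 normalized counts in WT, at least 1.59-fold lower in KO against a floor of 3 reads per library. Its call (adjusted p = 0.0443) was lost with limma weights per group and without any 1 of the 9 libraries other than KO at D0, up to an adjusted p of 0.101.

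Markers of mast cells and eosinophils are given beside these genes as a list. HUDEP-2 cells at D0 carried RNA of several of them, tryptases above all, while RNASE3, CCR3 and CMA1 had no read in any library and CLC and FCER1A at most 1.07. Of 20 markers, 10 passed the filter, and 2 of these 10 had a called difference, both negative, where 2.47% of all genes were called and 0.893% were negative. The list median was -1.33, and 9 of 10 differences were negative. Several of these had almost no reads at D6, so their differences and the median depend on the prior count. CPA3 and EPX were at most 1.13 in WT and 1.05 and 0.991 in KO. MS4A2 was at most 1.12 in WT and 1.98 in KO, and IL5RA at most 1.16 in KO. Summed over the list, the D0 level was 21970 to 23240 in WT, against 21991 to 29430 in KO, and the D6 level was 1433 to 1941 in WT, against 563 to 1711 in KO, with overlap at both days. SIGLEC6, a sialic acid-binding receptor of mast cells and trophoblast, was at 1619, 1752 and 1884 in WT and 2039, 2885 and 3163 in KO at D0, and at 132, 93.9 and 101 in WT and 19.8, 33.7 and 8.37 in KO at D6. SIGLEC6 was thus above every WT library at D0 and below every one at D6, although the D0 effect missed the threshold (adjusted p = 0.0538), and its difference was -3.04 ± 0.39 (SE, adjusted p = 0.00268). HPGDS, the synthase of prostaglandin D2, was lower in KO at both days. It was at 32.9, 24.1 and 21.2 in WT and 2.96, 11.3 and 9.63 in KO at D0, and at 52.5, 48.7 and 46.4 in WT and 0.991, 0 and 0 in KO at D6, from 1, 0 and 0 reads. The WT to KO ratio of reads at D6 was 139, with an exact 95% counting interval of 24.5 to 5520 (adjusted p of the difference = 0.0131). The tryptase genes TPSAB1 and TPSB2 are near-identical copies whose reads can be split between them. TPSB2 was at 699 to 946 in WT and 315 to 963 in KO at D6. The part of such cells in the other results was not tested. Of the platelet list 3 of 20 markers and of the lymphoid, monocyte and granulocyte list 5 of 24 passed the filter, with no call. All 3 platelet differences were negative, with a median of -0.99. In the lymphoid, monocyte and granulocyte list 4 of the 5 were positive, with a median of 0.863, and several members had few reads. ITGA2B, the platelet integrin, was at 313 to 389 in WT and 53.4 to 176 in KO at D6, and its difference was called with D0 and D6 libraries paired by line (-1.11 on the log2 scale, adjusted p = 0.0411).

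**Figure D4:**
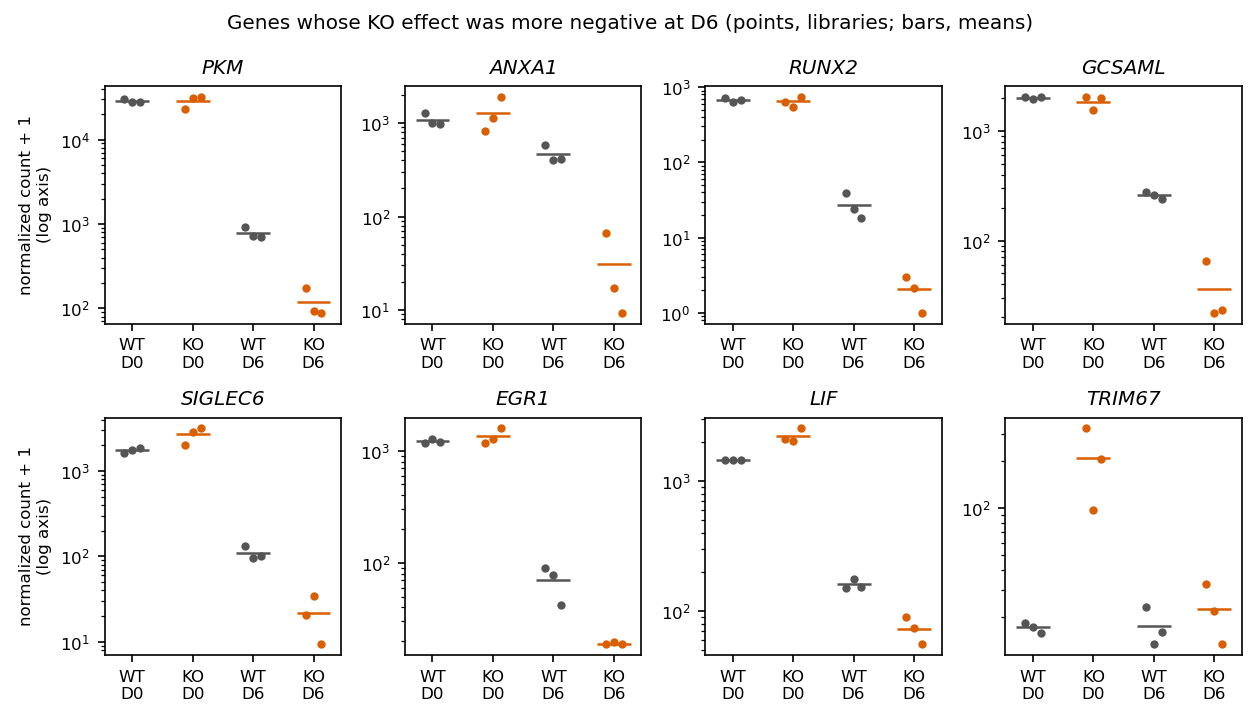
Normalized counts plus 1 on a log axis for 8 genes, with WT in gray and KO in orange at D0 and D6, where points are libraries and bars are means of 3. PKM, ANXA1, RUNX2, GCSAML and EGR1 overlap between WT and KO at D0, and all KO libraries lie below all WT libraries at D6. SIGLEC6 and LIF lie above WT at D0 and below it at D6, and TRIM67 is high in KO at D0 alone.

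Immediate early genes, which growth factor signaling switches on within minutes, had 3 negative and no positive calls among 24 tested members, 12.5% against 2.47% of all genes. Their median difference was -0.257. At D6 9 were called lower in KO, as were 828 of all 13879 genes, while none was called at D0. FOSL1, a partner of JUN in AP-1, was at 835, 761 and 768 in WT and 695, 724 and 716 in KO at D0, and at 196, 204 and 156 in WT and 79.3, 67.3 and 71.2 in KO at D6. EGR1, a zinc finger factor, was at 1170, 1276 and 1202 in WT and 1169, 1270 and 1585 in KO at D0, and at 88.2, 77.0 and 41.3 in WT and 17.8, 18.6 and 17.8 in KO at D6. Both therefore fell further in KO than in WT. The differences were -1.20 ± 0.15 for FOSL1 and -2.05 ± 0.33 for EGR1 (SE, adjusted p = 0.00195 and 0.00695), the latter lost with limma weights per group (adjusted p = 0.069). MCL1, an anti-apoptotic BCL2 relative, differed by -0.19 ± 0.05 (SE, adjusted p = 0.0474), and its call was lost without any single library and with libraries paired by line (adjusted p = 0.0662). The list had 1 positive and 4 negative calls with that pairing, which called 426 of all 13879 genes positive and 292 negative.

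Genes of the ATF4 integrated stress response, which cells induce when amino acids or heme run short, had 4 negative calls and no positive one among 38, 10.5% against 2.47% of all genes. With libraries paired by line it had 12 negative and 1 positive, in a fit that called 292 of all 13879 genes negative and 426 positive. The median KO effect was -0.03 at D0 and -0.196 at D6, and the median difference was -0.235. At D6 17 members were called lower in KO, as were 828 of all 13879 genes. SESN2, a leucine sensor that restrains mTORC1, was at 372, 340 and 331 in WT and 378, 381 and 424 in KO at D0, and at 978, 1155 and 1218 in WT and 554, 783 and 717 in KO at D6. GDF15, a secreted stress cytokine of erythroblasts, was at 67.6, 67.2 and 77.6 in WT and 97.5, 53.6 and 88.8 in KO at D0, and at 626, 552 and 855 in WT and 304, 189 and 307 in KO at D6. Both rose on maturation, and less so in KO. TRIB3, a pseudokinase that feeds back on ATF4, differed at the other day. It was at 324, 252 and 289 in WT and 535, 537 and 552 in KO at D0, and at 279, 299 and 318 in WT and 220, 339 and 281 in KO at D6, so KO was above WT at D0 alone. The differences were -0.89 ± 0.17 for SESN2, -1.01 ± 0.20 for TRIB3 and -1.52 ± 0.34 for GDF15 (SE, adjusted p = 0.0194, 0.0199 and 0.0385). SLC1A5, a glutamine carrier, differed by -0.37 ± 0.08 (SE, adjusted p = 0.0325). The calls of SESN2 and TRIB3 were lost without any of 5 libraries, that of SLC1A5 without any of 8 and that of GDF15 without any of 9, at adjusted p up to 0.114. The count of 4 was fragile. It became 0 without WT D0 replicates 2 or 3, KO D0 replicate 3 or WT D6 replicates 2 or 3, 2 without WT D0 replicate 1, WT D6 replicate 1 or KO D6 replicate 3, 6 without KO D0 replicate 1 and 12 without KO D6 replicate 2.

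Several other genes stood lower in KO at D6 after overlapping at D0. BPGM, which makes the 2,3-bisphosphoglycerate of red cells, was at 533, 542 and 471 in WT and 538, 538 and 560 in KO at D0, and at 2909, 2853 and 3340 in WT and 1801, 1841 and 1994 in KO at D6. Its difference was -0.77 ± 0.10 (SE, adjusted p = 0.0028). SLC14A1, the Kidd blood group urea channel, was at 1876, 1837 and 2381 in WT and 1131, 1205 and 1346 in KO at D6 after overlapping at D0, with a difference of -0.73 ± 0.13 (SE, adjusted p = 0.0151) that was lost without WT D0 replicate 1 or 2 (adjusted p up to 0.052). ARG2, the mitochondrial arginase and a gene the study named for this knockout, was at 229, 186 and 216 in WT and 163, 174 and 203 in KO at D0, and at 444, 467 and 558 in WT and 150, 147 and 138 in KO at D6. ARG2 rose in WT and did not in KO, a difference of -1.53 ± 0.18 (SE, adjusted p = 0.00121). RSAD2, an interferon-induced antiviral enzyme, differed by -1.50 ± 0.16 (SE, adjusted p = 0.000734) and was the only called gene of 40 interferon-stimulated ones. SLC37A2, a sugar-phosphate exchanger, differed by -2.04 ± 0.32 (SE, adjusted p = 0.00593).

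HBB, the adult beta globin, was among the 13 genes that were higher in KO at D0 and no longer called at D6. It was at 85140, 84900 and 61200 in WT and 107500, 105800 and 124700 in KO at D0. Its D6 values were 686400, 636300 and 745600 in WT and 520300, 578400 and 589900 in KO. KO was thus above WT at D0 and below it at D6 in every library, but the D6 effect of -0.29 ± 0.11 (SE) was not called (adjusted p = 0.111), and the difference was -0.84 ± 0.16 (SE, adjusted p = 0.0181). The call of HBB was lost without KO D0 replicate 3 or WT D6 replicate 3 (adjusted p up to 0.0531). Of 10 tested globin genes and the alpha globin chaperone, HBB was the 1 called, and the median difference was -0.161, or -0.352 with a gene at 0 in a group set to its bound. Reads of HBA1 and HBA2 can be split between these copies, and neither was called.

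LIF and TRIM67 stood out among the genes raised in KO progenitors. LIF, a cytokine that keeps stem cells undifferentiated, was the 1 gene called in opposite directions with a negative difference (GRCh38 chromosome 22, 30240453 to 30246759, minus strand). It was at 1456, 1466 and 1468 in WT and 2109, 2043 and 2560 in KO at D0, and at 150, 177 and 153 in WT and 89.2, 73.1 and 54.4 in KO at D6. The groups were apart at both days, and the difference was -1.75 ± 0.19 (SE, adjusted p = 0.000734). IKZF2, the lymphoid factor Helios, was at 1452, 1540 and 1513 in WT and 2693, 2806 and 3383 in KO at D0, and at 25.7, 21.5 and 20.2 in WT and 16.8, 5.80 and 15.7 in KO at D6. Its difference was -1.75 ± 0.33 (SE, adjusted p = 0.0185), lost without WT D6 replicates 1 or 2 and with limma weights per group (adjusted p up to 0.0837). TRIM67, a ubiquitin ligase of neurons, was at 17.4, 16.4 and 14.98 in WT and 324, 96.9 and 204 in KO at D0, and at 22.3, 12.5 and 15.1 in WT and 31.7, 20.9 and 12.6 in KO at D6. Its KO level was 3.67 ± 0.43 higher on the log2 scale at D0 (SE), and the difference of -3.28 ± 0.67 (SE, adjusted p = 0.025) was lost without any 1 of 7 libraries, the exceptions being KO D0 replicates 1 and 2, WT D6 replicate 2 and KO D6 replicates 1 and 2, and with limma weights per group (adjusted p up to 0.0777).

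Across the 43 lists, 13 had no called member. Among these were the enzymes of heme biosynthesis (8 tested, median -0.138), iron uptake and storage (25, median 0.027), the cytoplasmic (78, median 0.025) and mitochondrial ribosomal proteins (77, median 0.066), ribosome biogenesis (53, median 0.083), the proteasome (47, median 0.018) and the protein genes of the mitochondrial genome (13, median 0.17). BAZ, ISWI and B-WICH remodelers (20, median 0.03) and the neighbors of BAZ1B in 7q11.23 (18, median 0.037) held none either. A gene that misses the threshold is not thereby shown to have the same KO effect at both days. For the heme enzymes the D0 median was -0.09 and the D6 median -0.218. ALAS2, the first enzyme of heme synthesis in erythroid cells, was at 68910, 65170 and 80510 in WT and 51330, 60470 and 69710 in KO at D6, with a difference between the days of -0.09 ± 0.17 (SE, adjusted p = 0.847). In the mitosis list 46 of 52 differences were negative, with a median of -0.113 and 2 calls, CENPE and CDK1, a share of 3.85% that is near the 2.47% of all genes. The call of CENPE was lost in 8 and that of CDK1 in 13 of the 19 refits. In the factors of caspase-initiated chromatin condensation, the process the study set out from, 2 of 32 genes were called, both more positive, 6.25% against 2.47% of all genes called and 1.58% more positive. CASP6, an executioner caspase that cleaves lamins, differed by 0.45 ± 0.09 and its substrate LMNA, lamin A/C, by 0.32 ± 0.06 (SE, adjusted p = 0.0189 and 0.0185). The call of CASP6 was lost without WT D0 replicates 1 or 2, KO D0 replicate 3 or KO D6 replicate 3, and that of LMNA without WT D0 replicates 1 or 3 or WT D6 replicates 2 or 3 (adjusted p up to 0.0632 and 0.0666).

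**Figure D5:**
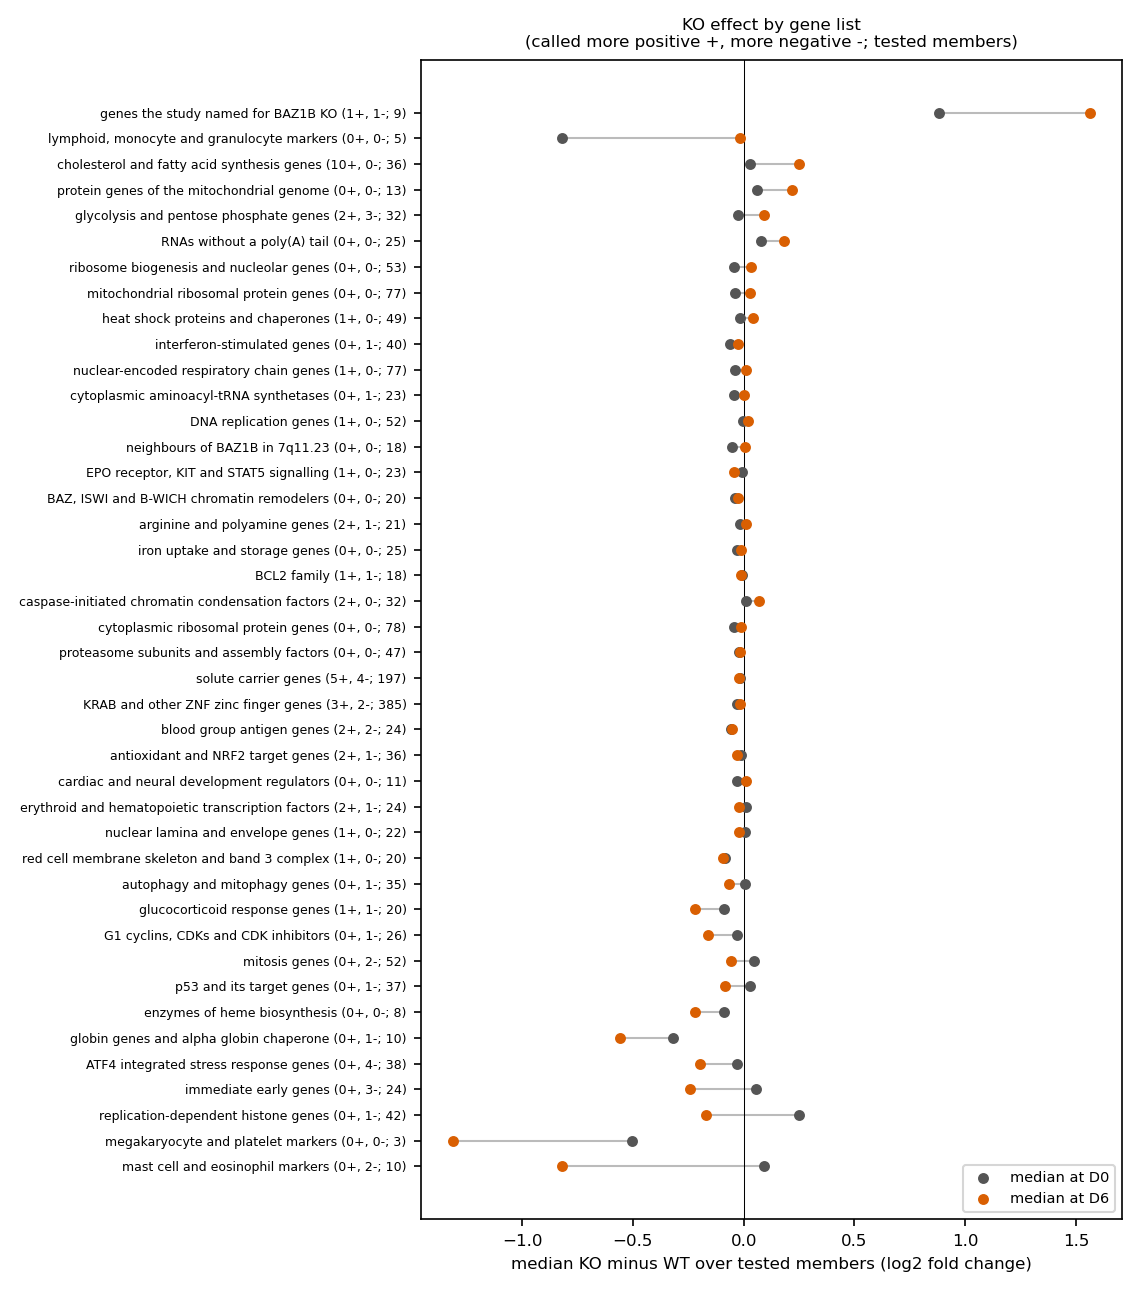
Median KO minus WT on the log2 scale over the tested members of each of 42 gene lists, at D0 in gray and at D6 in orange, ordered by the median difference. Beside each name stand the calls with a more positive (+) and a more negative (-) KO effect at D6 and the number of tested members. Cholesterol and fatty acid synthesis, with 10 positive calls among 36, have a higher median at D6 than at D0, and mast cell and eosinophil markers, with 2 negative calls among 10, a lower one. Several of these markers had almost no reads at D6.

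Of the 9 genes the study named for BAZ1B KO, ARG2 and SELENON had a called difference. SELENON, a selenoprotein of the endoplasmic reticulum, was at 239, 256 and 257 in WT and 430, 756 and 519 in KO at D6, with a difference of 0.89 ± 0.21 (SE, adjusted p = 0.0468) that was lost with upper-quartile scaling and without any 1 of 8 libraries (adjusted p up to 0.115). The difference between the days did not pass for the others. RELN, an extracellular guidance protein, was at 29520, 29730 and 27620 in WT and 52620, 56070 and 51390 in KO at D0, and at 17890, 18070 and 17740 in WT and 42400, 36850 and 48790 in KO at D6. Its difference was 0.37 ± 0.11 (SE, adjusted p = 0.105). SOX4, a transcription factor of development, differed by -0.20 ± 0.80 (SE, adjusted p = 0.937). It was at 239, 780 and 573 in KO at D0, so its KO libraries spread widely. RYR3, a calcium release channel, was higher in KO at both days, with a difference of 2.73 ± 0.77 (SE, adjusted p = 0.0893).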

How the data were processed

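RNA-Seq counts of 12 HUDEP-2 libraries were analysed. The table the authors deposited gives unnormalized read counts by gene name. They were made by trimming, mapping with STAR 2.7.0f to hg38 and counting with featureCounts of Subread 1.6.4. The labels name an unstranded kit and the study's methods a stranded one, and which applies was not tested. The second count table of the series was not used here.

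In R 4.3.3, edgeR 4.0.16 filtered genes by filterByExpr (minimum count 10, minimum total 15), applied TMM and fitted its quasi-likelihood model to all 12 libraries, with a mean for each of the 4 groups. The contrast was KO minus WT at D6 less KO minus WT at D0. Tests are two-sided, with Benjamini-Hochberg adjustment over 13879 genes and calls at an adjusted p below 0.05. Standard errors come from the F statistic. Folds against groups without reads use a floor of 3 reads per library, and intervals cover counting error only, since reads carry no molecular identifiers. The procedure was run on simulated counts with known differences and the same spread in every library. WT and KO libraries differed in spread here, so that run does not test whether the p values hold for these data.

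The members and the 43 gene lists were chosen with earlier results of these data known. Named genes were, per direction, the 15 called genes with the largest difference at a mean normalized count of at least 50, up to 4 called members of each list, BAZ1B and the study's own named genes, and from lists without calls up to 2 abundant members. Another 33 genes were added after their values were seen: those of the small patterns, the remaining called cholesterol genes and single list members. Not all genes the rule covers are described, and some genes and 1 gene list are not reported here. No 2 replicates agreed within sampling noise. In the paired fit, KO libraries were paired across days by the line names in the headers. WT libraries were paired by number, although what the WT numbers mark is not known. Same-numbered D0 and D6 libraries deviated from their group means with correlations of 0.409, 0.533 and 0.146 in KO and 0.245, -0.009 and 0.152 in WT. Coordinates are of GENCODE v44 on GRCh38. Alternatives were DESeq2 1.42.0, upper-quartile scaling, no filter, no globins, each day alone, other cutoffs, replicate blocks, leaving out each library and, chosen after seeing the data, limma 3.58.1 voom with a weight per group.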

Additional observations from a re-analysis of the deposited data

Results flagged for a closer look

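Each of these results was singled out because the KO effect at D6 differed from that at D0 by a test of the difference itself. This held for 343 genes as a whole. For 6 of them the KO effect was called at both days in opposite directions. The differences on the log2 scale were 1.75 for DDN, 0.9995 for CRB2, 0.71 for REEP6, 0.66 for ZNF395 and 0.64 for TFIP11, which were lower in KO at D0 and higher at D6, and -1.75 for LIF, which was higher at D0 and lower at D6. Groups of 3 libraries were too small for the test of single outlying libraries.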

How the results depend on the processing

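Of 116 called genes considered for description, 37 kept their call under each of the 19 alternatives that refit them, 79 lost it under at least 1, and none changed direction. The count of 343 became 987 with no filter on low counts, 700 with DESeq2, 87 at an adjusted p below 0.01 and 4 at the study's cutoffs. Leaving out 1 library gave 119 to 765. Upper-quartile scaling gave 334, and limma with a weight per group, chosen after seeing the data, gave 306. For KO against WT at D0, the count of 539 became 1201 with no filter, 243 at an adjusted p below 0.01 and 50 at the study's cutoffs, and 258 (without KO D0 replicate 3) to 1323 (without KO D0 replicate 1) without 1 library. At D6, 1782 became 868 and 104 under those cutoffs, and 1112 (without WT D6 replicate 3) to 2443 (without KO D0 replicate 1) without 1 library. The cause was not tested. Median differences kept their sign under every setting for 25 of the 43 lists. Depth limits genes with few reads in a group, such as PITX1, RUNX2, HPGDS and C3AR1.

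The replicate block by line, with a term per genotype and number, gave 718 genes in place of 343. Among the genes described it changed the calls of MCL1 and ITGA2B and no other. A block by number across genotypes gave 333 genes, 287 of them among the 343, with 585 called at D0 and 1802 at D6.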
